A study of Mus musculus with 8 samples.

Results

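Chemokines and their receptors were examined in bulk RNA sequencing of mouse hearts. The members were all rows of the count table whose symbol begins with Ccl, Cxcl, Cxcr, Ackr or Ccr followed by a digit, or with Cx3c, with 1 exception. This gave 59 genes of 27304 in the table, among them ligands, signalling receptors and atypical receptors. The series holds 4 control libraries, named Sham in the titles and taken from healthy male 129/Sv mice on a standard diet, and 4 adenine libraries from male 129/Sv mice with chronic kidney disease, fed 0.15% adenine. Both diets were given for 13 weeks, and 129/Sv is an inbred strain. Adenine in the diet injures the kidney, so the heart is seen here as an organ remote from the injury, and no genetic change separates the groups. The labels do not give the age of the mice, the design text speaks of no replicates, and nothing says that each library came from a separate animal, so the p-values measure only the spread between these libraries, which may be technical.

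Chemokines are small secreted proteins that direct the movement of leukocytes. They are classed by the spacing of their first cysteines into the CC, CXC and CX3C groups. They bind heptahelical receptors coupled to inhibitory G proteins. Atypical chemokine receptors bind the same ligands without that coupling and take them out of the tissue. Homeostatic ligands such as Cxcl12 and Ccl21 are made constantly by stromal and lymphatic cells and set the traffic of leukocytes, whereas inflammatory ligands such as Ccl2 are induced in stressed or activated cells and recruit monocytes, neutrophils and lymphocytes. In the heart, resident macrophages, fibroblasts and endothelial cells are known sources.

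Total counts ran from 15626620 in adenine 2 to 33886385 in control 2. Values are given as CPM, the usual measure of counts relative to a library's total, with each total scaled by the trimmed mean of M-values (TMM). Cardiomyocyte markers summed to 31414 to 57092 CPM across the libraries. Adenine 3 stood apart with 2548 CPM summed over 10 of 10 macrophage and monocyte markers, 2065 CPM of it from Lyz2. These markers summed to 282 to 438 CPM in adenine 1, 2 and 4 and to 353 to 601 CPM in the controls, and none of the 10 was at 0 throughout. Adenine 3 was the highest library for 8 of the 10, but not for Cd163 and Ly6c2. These had 22.8 and 8.53 CPM there, within control ranges of 9.20 to 27.9 and 7.72 to 10.7 CPM. The same library had the lowest cardiomyocyte sum and the highest fibroblast sum, 3437 CPM, of which the collagens Col1a1, Col1a2 and Col3a1 made 2653 CPM. The other 6 fibroblast markers summed to 981 to 1597 CPM in the controls and 573 to 909 CPM in the adenine libraries, with 784 CPM in adenine 3. Among them Dcn, Dpt, Pdgfra and Tcf21 were lower in every adenine library than in any control, where the background is 3.84% of genes. DESeq2 called 4 of the 9 fibroblast markers lower, beside 0.991% of all genes with an adjusted p in that tool. This split of the list was chosen after its values were seen. Adenine 2 stood apart with 2103 unscaled CPM on 1472 olfactory and vomeronasal receptor genes, known from sensory neurons, against 369 to 1312 unscaled CPM elsewhere.

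No chemokine or receptor gene passed the test of the diet. Of the 59 genes, 51 had enough reads to be tested. In edgeR's quasi-likelihood test, after Benjamini-Hochberg adjustment over 20093 genes, 0 of the 51 were called higher and 0 lower at an adjusted p under 0.05. Over all genes tested, 8 were called higher, 0.0398%, and 0 lower, 0%. At an unadjusted p under 0.05, 11 of the 51 members were higher and 7 of the 51 lower, against a background of 10.9% and 6.63% of all genes. DESeq2 called 3 members lower and 0 higher, where 0.991% of the 17662 genes with an adjusted p in that tool were called lower and 0.866% higher. The 3 were Ccl24, Ackr3 and Ccl21a. DESeq2 gave no adjusted p for several tested members, among them Cxcl2, Ccl9, Ccl2 and Ccr1, and so could not call these. Limma-voom called 0 in either direction.

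The log2 fold changes, adenine minus control, ran from -1.14 for Ccl24 to 1.53 for Cxcl2 among the members with values given here. Over all 51 tested they were positive in 37 of the 51 and negative in 14, where 45.8% of all genes were negative. Their median was 0.44, beside 0.05 over all genes tested, but without adenine 3 it was 0.06, beside 0.03. All 4 adenine libraries lay above all 4 controls for Cxcl12, Ccl3 and Ccl25, where the background is 3.45% of genes. All 4 lay below all 4 controls for Ccl24 alone, where the background is 3.84%. Members that passed the filter only through the group in which they were high had to differ, so these counts describe the 51 and support nothing about the family as a whole.

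**Figure D1:**
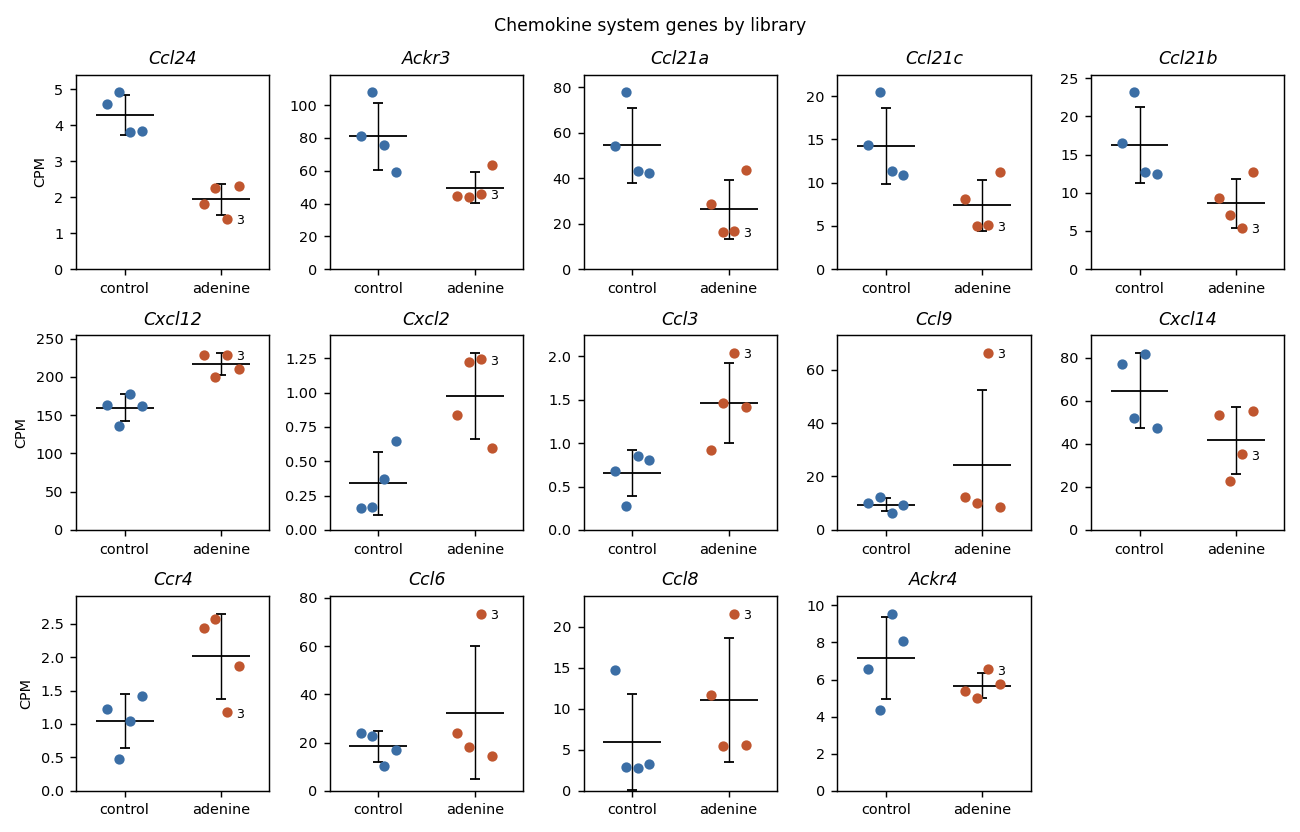
CPM in each library for 14 chemokine system genes, controls on the left and adenine libraries on the right of each panel; points are libraries, the horizontal line is the mean, the bar is the SD (n = 4, drawn to 0 at most), and the point marked 3 is adenine 3. Ccl24 and Cxcl12 separate the diets, whereas Ccl9 is high in adenine 3 alone, at 66.2 CPM.

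Levels of different genes were compared as RPKM, the CPM value divided by the gene's annotated exon length in kilobases. Ccl21a had the highest mean, with 62.6 ± 19.0 RPKM in the controls and 30.2 ± 14.8 RPKM in the adenine libraries (SD, n = 4). It was followed by Ccl21b, Cxcl14, Ccl21c, Cxcl12, Ackr3, Ccl8 and Ccl6. Cxcl14 had 35.3 ± 9.57 RPKM in the controls and Cxcl12 19.5 ± 2.12 RPKM. On the adenine diet the order of these last genes was turned, with 22.8 ± 8.52 RPKM for Cxcl14 and 26.5 ± 1.76 RPKM for Cxcl12, and these intervals overlap. Among the first 8 were 5 homeostatic ligands, 3 of them copies of Ccl21, and Ackr3 was the only receptor. The macrophage-associated ligands Ccl8 and Ccl6 came next, with mean levels over both diets of 16.6 and 14.2 RPKM.

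**Figure D2:**
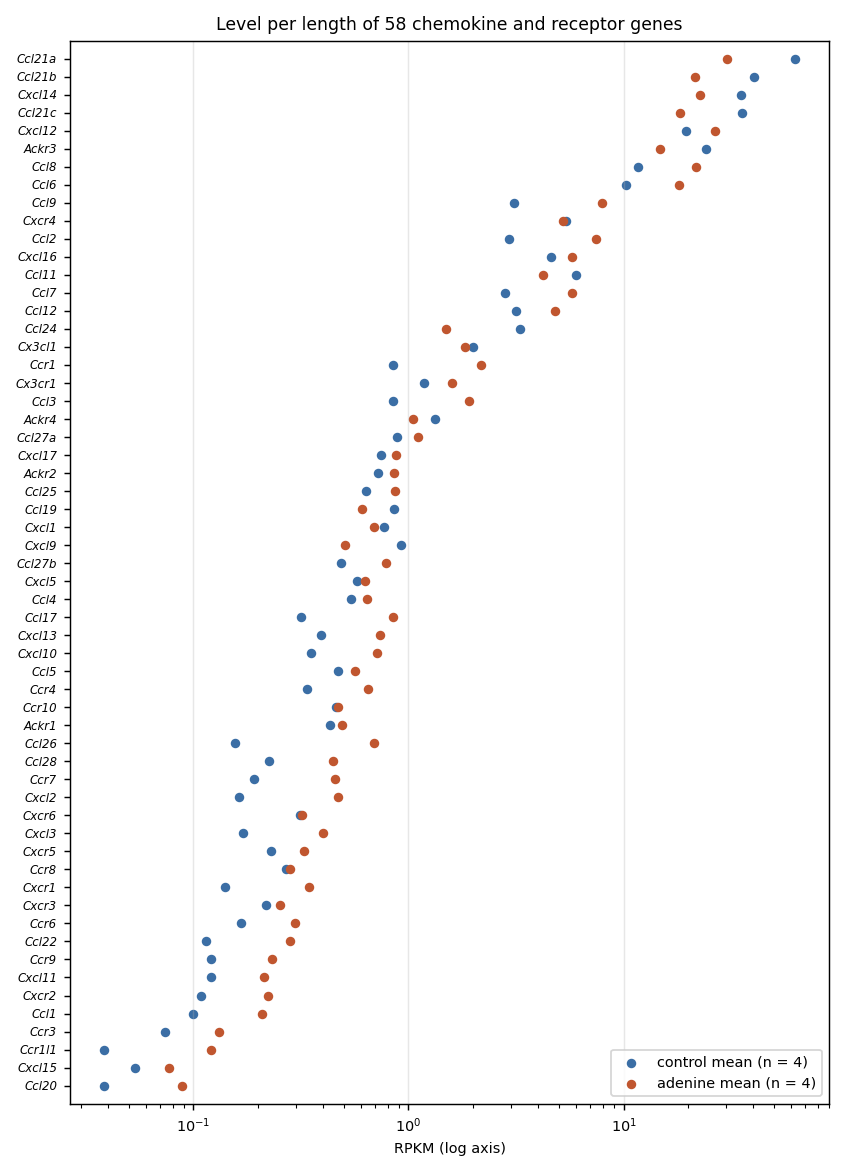
Mean RPKM of each of 58 genes (log axis) in control and adenine libraries, ordered by the mean over all 8. The Ccl21 rows, Cxcl14, Cxcl12 and Ackr3 lead, and Ccl20, at a control mean of 0.0385 RPKM, is last.

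Among the homeostatic ligands, the Ccl21 genes were lower in the adenine libraries without passing the test. Ccl21 is the ligand that lymphatic endothelium uses to draw Ccr7-bearing dendritic cells and lymphocytes. Ccl21a (ENSMUSG00000094686) lies on chromosome 4 from 42772860 to 42773993 on the GRCm38 assembly. It measured 54.3, 77.9, 43.4 and 42.4 CPM in control 1 to control 4. In adenine 1 to adenine 4 it measured 28.5, 16.4, 16.7 and 43.7 CPM. Adenine 4 reached the level of the lower controls, so the groups overlapped by that library. The difference on the log2 scale was -1.05 (SE 0.30), and the adjusted p was 0.214 in edgeR and 0.038 in DESeq2. Without adenine 3 it was -0.89. Ccl21b had -0.91 (SE 0.27) and Ccl21c -0.95 (SE 0.28).

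These rows are not independent measurements. The mouse genome carries several near-identical copies of the gene, and the coding sequences of Ccl21a and Ccl21b, both of 402 bases, differ at 2 positions, T84A and C194T, counted from the first base of the start codon. The stretches around them, from the GENCODE transcripts and with the differing base in capitals, show how little separates reads of the copies.
Ccl21a around position 84: agtgatggagggggTcaggactgctgcct
Ccl21b around position 84: agtgatggagggggAcaggactgctgcct
Ccl21a around position 194: ggcaatcctgttctCaccccggaagcact
Ccl21b around position 194: ggcaatcctgttctTaccccggaagcact
In the deposited table, Ccl21b and Gm21541, another copy, differed by at most 1 read in any library, with 684 reads for each in control 2. Gm10591 and Gm13304 differed from Ccl21b by at most 9 reads. Ccl21c stayed at 0.713 to 0.941 times the count of Ccl21b. How reads that match several copies were counted is not stated, and the levels of the 3 members cannot be assigned to single genes.

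The receptor side of this axis had little signal. Ccr7 measured 0.0678 to 0.820 CPM in the controls and 0.486 to 1.101 CPM in the adenine libraries, which overlap. Ccl19, the other Ccr7 ligand, had a log2 fold change of -0.53 (SE 0.53), and -0.22 without adenine 3. Ackr4, the atypical receptor that removes Ccl19 and Ccl21, had 7.15 ± 2.21 CPM in the controls and 5.67 ± 0.665 CPM in the adenine libraries (SD, n = 4), with a log2 fold change of -0.33 (SE 0.24) and an adjusted p of 0.422 in edgeR. Its exons overlap Acad11 on the opposite strand. Of 6 lymphatic endothelial markers, 5 had negative log2 fold changes and 0 were called in edgeR. At an unadjusted p under 0.05 in edgeR, 1 was lower, beside 6.63% of all genes. The 6 markers summed to 87.4 to 154 CPM in the controls and 76.5 to 101 CPM in the adenine libraries. Fewer cells of a type and less RNA per cell cannot be told apart in bulk tissue, here or below, and the part of the lymphatic markers in the Ccl21 values was not tested.

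Cxcl12 had higher values and its scavenger Ackr3 lower values on the adenine diet, although neither passed in edgeR. Cxcl12, the stromal ligand that retains hematopoietic cells and acts on endothelium, lies on chromosome 6 from 117168535 to 117181367 (ENSMUSG00000061353). It had 163, 136, 178 and 162 CPM in control 1 to control 4 and 229, 199.8, 229 and 209.95 CPM in adenine 1 to adenine 4. Every adenine library exceeded every control, and adenine 3 was level with adenine 1. On the log2 scale the difference was 0.44 (SE 0.15; adjusted p = 0.24 in edgeR), and 0.40 without adenine 3. The median log2 fold change over the 381 genes between 128 and 256 CPM was -0.17.

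Ackr3, the atypical receptor that internalises Cxcl12, lies on chromosome 1 from 90203980 to 90216751 (ENSMUSG00000044337). It had 81.5, 108, 75.7 and 59.01 CPM in the controls, in order. The adenine libraries had 44.5, 44.3, 46.1 and 63.6 CPM. Only adenine 4 exceeded a control, by less than 5 CPM. The estimate was -0.71 (SE 0.19) on the log2 scale, and the adjusted p was 0.201 in edgeR and 0.0492 in DESeq2. Without adenine 3 it was -0.68 with an adjusted p of 0.08. Of 8 vascular endothelial markers, 7 had negative log2 fold changes, 4 of them at an unadjusted p under 0.05 in edgeR. Below all controls lay 3 of the 8, and 1 was called lower in DESeq2. Over all genes these shares were 6.63%, 3.84% and 0.991%, in that order. Fabp4, the positive one, was set aside after its values were seen. The other 7 vascular markers summed to 676 to 765 CPM in the controls and 470.4 to 623 CPM in the adenine libraries, with no overlap. All 7 mural cell markers were negative, with sums of 713 to 1077 and 494 to 824 CPM. The part of these markers and of the fibroblast markers above in the values of Ackr3 and Cxcl12 was not tested. Cxcr4, the signalling receptor of Cxcl12, had 9.78 ± 2.90 CPM in the controls and 9.497 ± 6.505 CPM in the adenine libraries, with a log2 fold change of -0.03 (SE 0.36). It measured 19.2 CPM in adenine 3, with 5.68 to 7.24 CPM in the rest of its group. Leaving out adenine 3 gave a log2 fold change of -0.65 (adjusted p = 0.0977 in edgeR).

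The start-site regions of Ackr3, Ccl21a and Cxcl12 are shown because these genes were among the members with the lowest p and have an entry in the RefSeq promoter table of GRCm38.p6. Each window spans 300 bases around a transcript start, most of them before it, 5′ to 3′ on the gene's strand. Capitals mark matches to TATAAA, known from core promoters, or to the box GGGCGG, known as a site of Sp factors, on either strand. In Cxcl12 the last 2 GGGCGG matches overlap by 1 base, and no other matches overlap.
Ackr3, chr1:90203730-90204029, plus strand: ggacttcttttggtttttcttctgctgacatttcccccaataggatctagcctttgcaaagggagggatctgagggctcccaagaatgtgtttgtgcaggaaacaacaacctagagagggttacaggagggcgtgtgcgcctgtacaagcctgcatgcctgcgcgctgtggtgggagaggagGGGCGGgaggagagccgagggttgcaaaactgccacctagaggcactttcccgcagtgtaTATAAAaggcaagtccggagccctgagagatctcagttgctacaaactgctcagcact
Ccl21a, chr4:42773942-42774241, minus strand: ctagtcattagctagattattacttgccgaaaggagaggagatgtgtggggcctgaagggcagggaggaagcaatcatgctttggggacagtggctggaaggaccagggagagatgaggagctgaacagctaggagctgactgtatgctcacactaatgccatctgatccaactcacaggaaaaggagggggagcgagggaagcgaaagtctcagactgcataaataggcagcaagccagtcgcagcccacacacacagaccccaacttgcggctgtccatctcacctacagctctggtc
Cxcl12, chr6:117168285-117168584, plus strand: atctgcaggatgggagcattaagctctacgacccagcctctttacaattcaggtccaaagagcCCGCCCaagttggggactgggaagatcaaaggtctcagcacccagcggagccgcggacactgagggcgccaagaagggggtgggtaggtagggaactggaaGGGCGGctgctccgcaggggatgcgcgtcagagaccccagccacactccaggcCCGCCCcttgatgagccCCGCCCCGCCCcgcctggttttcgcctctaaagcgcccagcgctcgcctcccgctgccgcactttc
Cxcl12 held 5 matches to GGGCGG and none to TATAAA, Ackr3 1 of each, and Ccl21a neither. Of the 58 members with values reported here, 43 had at least 1 window, 50 windows in all. TATAAA was found in 14 of these windows and in 13.6% of all 32851 windows, GGGCGG in 11 and in 35.7%, and the kappaB motif, bound by NF-kappaB, in 12 and in 8.5%. The 12 with a kappaB match included windows of Cxcl1, Cxcl2, Cxcl3 and Cxcl10, named after the matches were seen. A match describes the letters only.

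The other homeostatic ligands were mixed. Cxcl14, an epithelial and stromal chemokine, had 77.2, 52.1, 81.9 and 47.2 CPM in the controls and 53.3, 22.6, 35.2 and 55.2 CPM in the adenine libraries. Adenine 1 and adenine 4 lay within the control range. The log2 fold change of Cxcl14 was -0.63 (SE 0.27), with an adjusted p of 0.274 in edgeR, and -0.43 without adenine 2, and the part of the lower fibroblast markers in it was not tested. Ccl25, known as a ligand of Ccr9 in thymus and gut, had 4.72 ± 0.205 CPM in the controls and 6.44 ± 1.062 CPM in the adenine libraries, with a log2 fold change of 0.45 (SE 0.19) and exons that overlap Elavl1 on the opposite strand. Ccl28, a mucosal ligand, had 0.97 (SE 0.42) and was at its highest, 3.30 CPM, in adenine 2, without which it had 0.70. With all libraries, the genes between 1 and 2 CPM, the level of Ccl28, had a median of 0.69. Ccl27a and Cxcl13, the B-cell attractant, had 0.31 and 0.86 and Cxcl17 had 0.22, none of them called. Ccl27a had 0.55 without adenine 3 and 0.051 without adenine 2, Cxcl17 had -0.10 without adenine 2, and exons of Ccl27a overlap Il11ra1 on the opposite strand. Over the 11 homeostatic ligands tested, 6 log2 fold changes were positive and 5 negative, with a median of 0.22. With Ccl27b, which was not tested, 12 homeostatic ligands summed to 285 to 337 CPM in the controls and 269 to 347 CPM in the adenine libraries. This sum holds the 3 Ccl21 rows, which are not independent.

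Among the inflammatory ligands, Ccl24 differed most clearly between the diets. Ccl24, or eotaxin-2, attracts eosinophils through Ccr3 and is made by alternatively activated macrophages. It lies on chromosome 5 from 135569937 to 135573049 (ENSMUSG00000004814). It had 4.58, 4.91, 3.80 and 3.82 CPM in the controls and 1.80, 2.26, 1.40 and 2.32 CPM in the adenine libraries. The lowest control was above the highest adenine library by more than 1 CPM, and the counts behind these values were 37 to 145 reads. The difference was -1.14 (SE 0.26) on the log2 scale, and the adjusted p was 0.142 in edgeR and 0.00236 in DESeq2. Without adenine 3 it was -1.02 (adjusted p = 0.0673 in edgeR). Ccl24 was thus low in adenine 3, where 8 of the 10 macrophage and monocyte markers were at their highest. The median over the 2068 genes between 2 and 4 CPM was 0.37, so Ccl24 lay below genes of its abundance.

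The other eotaxins did not share a clear difference. Ccl11 had 9.77, 8.98, 1.23 and 6.04 CPM in the controls, with control 3 far below the rest, and 3.25 to 5.48 CPM in the adenine libraries. The log2 fold change of Ccl11 was -0.51 (SE 0.45). Ccl26 was not tested: it had 0 to 2 reads per control library and 3 to 7 reads per adenine library. Ccr3, the eotaxin receptor, was not tested either, with 5 to 13 reads per library.

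The monocyte- and macrophage-associated ligands Ccl2, Ccl9 and Ccl6 were high in adenine 3 and not in the other adenine libraries. Ccl2, the principal monocyte attractant, had 3.93, 2.54, 2.05 and 4.85 CPM in the controls. In adenine 1 to adenine 4 it had 3.56, 4.04, 23.4 and 2.95 CPM. The other 3 adenine libraries thus lay within the control range. On the log2 scale the difference was 1.36 (SE 0.59) with all libraries and 0.06 without adenine 3. Ccl9, a macrophage-derived CC chemokine that binds Ccr1, had 10.02, 12.2, 6.22 and 9.25 CPM in the controls. The adenine libraries had 12.3, 10.2, 66.2 and 8.49 CPM. The Ccl9 difference of 1.37 (log2, SE 0.55; adjusted p = 0.267 in edgeR) became 0.12 without adenine 3. Ccl6, its neighbour on chromosome 11, had 73.3 CPM in adenine 3, while the rest of its group had 14.5 to 23.8 CPM and the controls 10.2 to 24.1 CPM. For Ccl6 the log2 fold change of 0.82 (SE 0.44; adjusted p = 0.327 in edgeR) became 0.01.

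Ccl7 and Ccl12, both monocyte attractants, followed the same pattern, with 12.2 and 6.18 CPM in adenine 3 but at most 2.63 and 1.88 CPM in adenine 1, 2 and 4. Ccl8 had 21.6 CPM in adenine 3, but also 14.8 CPM in control 1 and 11.6 CPM in adenine 1, against 2.83 to 3.25 CPM in the other controls and 5.50 to 5.53 CPM in adenine 2 and adenine 4. Leaving out adenine 3 took its log2 fold change from 0.90 (SE 0.56; adjusted p = 0.372 in edgeR) to 0.33, and leaving out control 1 took it to 1.89. Cxcl16, a membrane-bound ligand of macrophages and endothelium, had 39.0 CPM in adenine 3. Adenine 1, 2 and 4 had 8.87 to 11.8 CPM and the controls 11.3 to 17.2 CPM. The log2 fold change of Cxcl16 went from 0.33 to -0.46 when adenine 3 was left out. Its exons overlap Zmynd15 on the opposite strand.

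These ligands lie in clusters on chromosome 11. Ccl2 (82035571 to 82037453), Ccl7 (82045712 to 82047525), Ccl11 (82057823 to 82062955), Ccl12 (82101845 to 82103400) and Ccl8 (82115185 to 82116799) follow each other on the plus strand. In that order the level in adenine 3 was 6.59, 5.53, 0.83, 5.32 and 3.90 times the median of the other adenine libraries, so Ccl11 did not share the height of its neighbours. In the second cluster Ccl5, Ccl9, Ccl6, Ccl3 and Ccl4 had 1.67, 6.49, 4.08, 1.43 and 1.43 times that median. Ccl9 and Ccl6, which are adjacent, were the high pair. Over the 51 tested members, 11 exceeded 3 times that median in adenine 3, where the background is 1.72% of genes. The factor of 3 was chosen after these values were seen.

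Ccl3, which recruits monocytes and lymphocytes through Ccr1 among other receptors, was higher in each adenine library than in any control. It measured 0.677, 0.271, 0.857 and 0.803 CPM in the controls and 0.920, 1.47, 2.04 and 1.42 CPM in the adenine libraries. The log2 fold change of Ccl3 was 1.17 (SE 0.44; adjusted p = 0.262 in edgeR) and 0.95 without adenine 3. The values rest on 8 to 64 reads per library. Over the 2615 genes between 1 and 2 CPM the median was 0.69 and the 90th percentile 1.20. Ccl3 thus did not exceed that percentile of genes of its abundance. The related ligands Ccl4 and Ccl5 had 0.24 (SE 0.53) and 0.25 (SE 0.52), and 0.026 and 0.043 without adenine 3.

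The neutrophil-attracting CXC ligands were scarce. Cxcl2, induced early in inflamed tissue, had 0.161, 0.169, 0.373 and 0.650 CPM in the controls and 0.840, 1.22, 1.24 and 0.598 CPM in the adenine libraries. Adenine 4 lay below control 4, and the 2 lowest controls had 5 reads each. For Cxcl2 the log2 fold change was 1.53 (SE 0.54; adjusted p = 0.249 in edgeR), and 1.37 without adenine 3. Cxcl3 had 1.19 (SE 0.55) with its maximum of 2.63 CPM in adenine 2, without which it had 0.71. Cxcl1 had -0.15 (SE 0.35) and Cxcl5, also a Cxcr2 ligand, 0.13 (SE 0.36), and without adenine 3 they had -0.32 and -0.063. Neutrophil markers, 8 of 8 tested, summed to 4.27 to 7.03 CPM in the controls and 9.68 to 14.3 CPM in the adenine libraries. All 8 had positive log2 fold changes, 0 were called in edgeR and 3 were higher at an unadjusted p under 0.05, beside 10.9% of all genes. However, 7 of the 8 had a mean under 1 CPM, where 94% of all genes tested were positive. Csf3r, the other marker, had 2.03 to 3.84 CPM in the controls and 4.44 to 8.69 CPM in the adenine libraries. Its log2 fold change was 0.86 (SE 0.28; adjusted p = 0.233 in edgeR), where the median over the 2131 genes between 4 and 8 CPM was 0.002. Of the 8 markers, 3 lay above all controls, where the background is 3.45% of genes. The part of the neutrophil markers in the Cxcl2 and Cxcl3 values was not tested.

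The interferon-inducible ligands of Cxcr3 differed in the sign of their log2 fold changes, and none was called. Cxcl9 had 2.77 ± 1.30 CPM in the controls and 1.53 ± 0.457 CPM in the adenine libraries, with a log2 fold change of -0.86 (SE 0.38; adjusted p = 0.28 in edgeR). Cxcl10 and Cxcl11 had 1.01 (SE 0.55) and 0.81 (SE 0.51), and their exons overlap Art3 and Gm2673 on the opposite strand. Without adenine 3 they had 0.70 and 0.73. With all libraries, genes of their abundance, 1 to 2 and 0.5 to 1 CPM, had medians of 0.69 and 0.83. Ccl17 and Ccl22, the Ccr4 ligands of dendritic cells, had 1.41 (SE 0.72) and 1.25 (SE 0.60) at under 1.2 CPM in every library. Cx3cl1, the membrane-bound endothelial ligand, had 7.80 ± 0.916 and 7.19 ± 1.28 CPM, with a log2 fold change of -0.11 (SE 0.18). This difference in means was smaller than the SD of either group. Over the 22 inflammatory ligands tested the median log2 fold change was 0.81, and 0.03 without adenine 3.

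Among the signalling receptors, Ccr1 and Cx3cr1 had the adenine 3 pattern. Ccr1, the receptor of Ccl3, Ccl6, Ccl7 and Ccl9, had 17.5 CPM in adenine 3, but 1.65 to 3.04 CPM in adenine 1, 2 and 4 and 1.42 to 4.16 CPM in the controls. Cx3cr1, the Cx3cl1 receptor of monocytes and macrophages, had 17.3 CPM there and 3.12 to 4.90 CPM in adenine 1, 2 and 4, with exons that overlap Gm33858 on the opposite strand. Without that library the log2 fold change of Cx3cr1 went from 0.44 to -0.49.

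The lymphocyte and granulocyte receptors were low. Ccr4, found on helper and regulatory T cells, had 1.22, 0.474, 1.04 and 1.41 CPM in the controls and 2.44, 2.57, 1.18 and 1.87 CPM in the adenine libraries. Adenine 3 was the library within the control range. The log2 fold change of Ccr4 was 0.94 (SE 0.40; adjusted p = 0.274 in edgeR) and 1.13 without adenine 3. With all libraries, the genes between 1 and 2 CPM, the level of Ccr4 and Ccr9, had a median of 0.69 and a 90th percentile of 1.20. Ccr9 had 0.93 (SE 0.41), with 4.16 CPM in adenine 2, where adenine 1, 3 and 4 had 1.44 to 2.24 CPM, and its log2 fold change was 0.53 without adenine 2. Its exons overlap Gm17200 on the same strand and Slc6a20a and AC165425.1 on the opposite strand. Ccr6, Ccr7, Cxcr1, Cxcr2 and Cxcr5, whose exons overlap Bcl9l on the opposite strand, had 0.50 to 1.25, and Cxcr3, Cxcr6 and Ccr10 had -0.02 to 0.20. Without adenine 2, Cxcr5 had 0.24, Cxcr2 0.46, Cxcr1 0.79 and Ccr10 -0.71. Cxcr5 had 0.75 and Ccr10 0.29 without adenine 3. T cell and NK cell markers, 6 of 9 tested, summed to 5.66 to 8.10 CPM in the controls and 10.3 to 19.7 CPM in the adenine libraries. Il7r alone made 15.2 CPM of the sum in adenine 3. Without Il7r, set aside after its values were seen, the sums were 4.03 to 7.41 CPM in the controls and 6.84, 12.96, 4.58 and 9.76 CPM in adenine 1 to adenine 4, which overlap. Of the NK cell markers, Klrb1c was at 0 in control 2 and at most 0.523 CPM in any library. Their part in these receptor values was not tested. Over the 14 signalling receptors tested the median log2 fold change was 0.88, and 0.52 without adenine 3.

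The remaining atypical receptors, Ackr1 of venules and Ackr2, the scavenger of inflammatory CC ligands, had log2 fold changes of 0.19 (SE 0.47) and 0.24 (SE 0.32), and -0.020 and 0.24 without adenine 3. Exons of Ackr1 overlap Cadm3 on the same strand. Ackr3 therefore accounted for most of the summed level of the 4 atypical receptors, which was 70.1 to 116 CPM in the controls and 52.3 to 73.4 CPM in the adenine libraries.

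**Figure D3:**
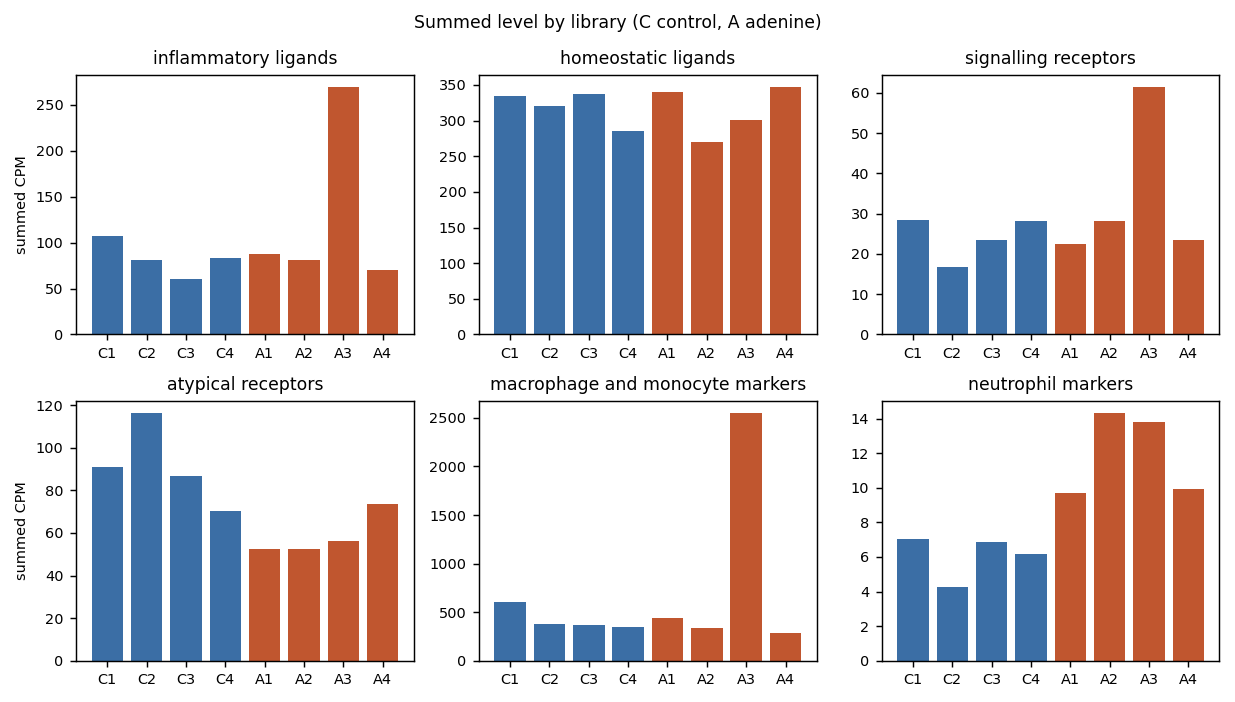
Summed CPM in each library (C1 to C4 control, A1 to A4 adenine) for the 4 classes of chemokine system genes and for macrophage and neutrophil markers; each bar is a library. Inflammatory ligands and signalling receptors peak in A3 at 269 and 61.4 CPM (the receptor sum covers 16 of 17 genes), as do the macrophage markers at 2548 CPM, whereas homeostatic ligands and atypical receptors do not.

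The class sums placed the adenine 3 pattern beside the macrophage markers. Inflammatory ligands summed to 269 CPM in adenine 3, to 70.6 to 87.3 CPM in adenine 1, 2 and 4 and to 60.02 to 108 CPM in the controls. Of the signalling receptors, 16 of 17 summed to 61.4 CPM in adenine 3, to 22.4 to 28.1 CPM in the others and to 16.8 to 28.4 CPM in the controls. In both classes the other 3 adenine libraries lay within the range of the controls. Lyz2, the macrophage lysozyme, went from 146 to 256 CPM in those 3 to 2065 CPM in adenine 3, and Cd68 from 6.36 to 14.95 CPM to 57.0 CPM. However, Cd163 and Ly6c2, at 22.8 and 8.53 CPM in adenine 3, lay within their control ranges. The part of the macrophage and fibroblast markers in these sums was not tested. Adenine 3 was the highest of the 8 libraries for 17 of the 51 members, where the background is 13.8% of genes.

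**Figure D4:**
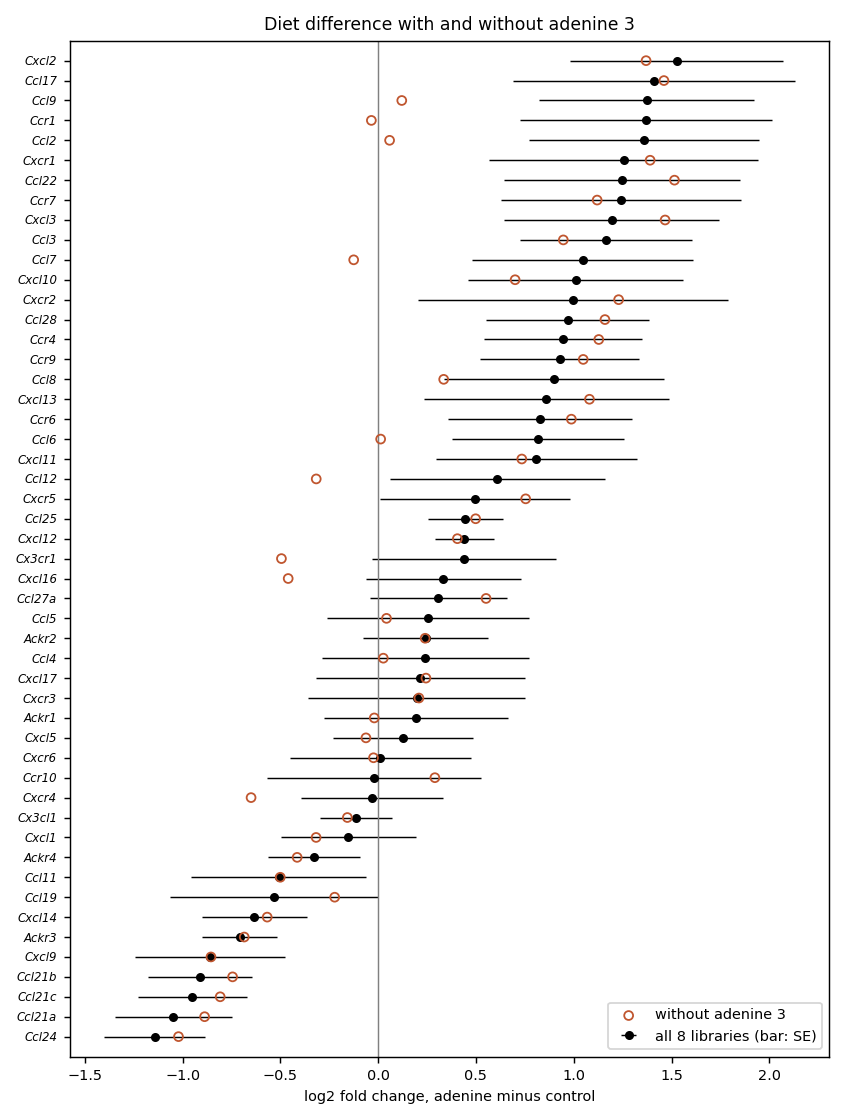
Log2 fold change (adenine minus control) of 50 tested genes with all 8 libraries (black, bar: SE) and without adenine 3 (open). Ccl9 moves from 1.37 to 0.12, while Ccl24, Ackr3, Ccl21a and Cxcl12 stay within 0.2 of their values.

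Without adenine 3 the median was close to that of all genes and no member was called: 29 of the 51 were positive and 22 negative, where 46.4% of all genes were negative. In that comparison 0 members passed in edgeR in either direction, where 0.178% of 20824 genes were called higher and 0.144% lower. At an unadjusted p under 0.05, 8 of the 51 members were higher and 7 of the 51 lower, against 18.9% and 9.9% of genes. The 3 remaining adenine libraries lay above all controls for 8 members, namely Ccl3, Ccl22, Ccl25, Ccl27a, Ccr4, Ccr6, Cxcl3 and Cxcl12, and below all controls for Ccl24. Over all genes these shares were 12.7% and 8.14%.

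The scarce members shared the shift of all scarce genes. The 19 tested members with a mean under 1 CPM had a median log2 fold change of 0.81, beside 0.80 over the 4071 genes under 1 CPM. Of these 19, 17 were positive, where 94% of all genes under 1 CPM were. Adenine 2, the library with the highest receptor background and the lowest total, was the highest for 10 of the 19, where it was for 76.8% of all genes under 1 CPM and for 35.8% of all genes tested. With the receptor background as a covariate in edgeR, a setting chosen after the data were seen, the median of the 19 was 0.28, and that of all genes under 1 CPM was 0.13. The covariate was taken from the same counts and was highest in adenine 2 and adenine 4. Genes that follow it therefore lose part of their estimate by construction. Under this setting Cxcl3 had 0.40 and Ccr4 0.63, while Ccl24 had -1.22, Cxcl12 0.44, Ackr3 -0.56 and Ccl21a -0.80. Other differences grew. Ccl9 and Ccl6, both high in adenine 3, went from 1.37 to 1.89 and from 0.82 to 1.33, and Cxcl9 from -0.86 to -1.28. The 32 members at 1 CPM or more had a median of 0.39, and -0.14 without adenine 3, beside -0.05 and, without adenine 3, -0.087 over all genes of that level. With the covariate and all libraries these 32 had a median of 0.28, beside -0.013 over all genes of that level.

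**Figure D5:**
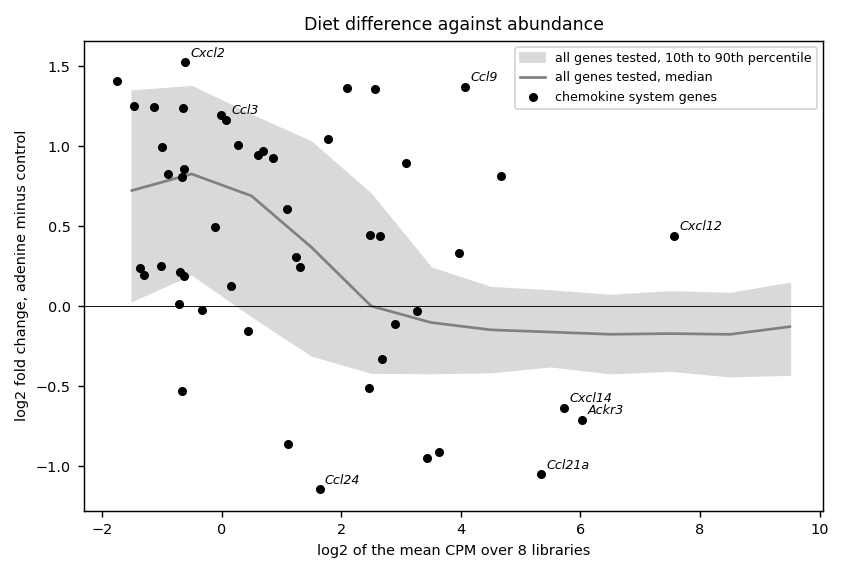
Log2 fold change (adenine minus control) against the log2 of the mean CPM for 50 tested genes (points), with the median and the 10th to 90th percentile of all genes tested in bins of 1 log2 unit (line and band). Scarce genes are shifted upward in the band, from a median of 0.83 at 0.5 to 1 CPM to -0.17 at 128 to 256 CPM. Among others, Ccl24, Ackr3, Ccl21a, Cxcl14 and Cxcl12 lie outside the band at their abundance.

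The 8 members left out of the test were Ccl1, Ccl20, Ccl26, Ccl27b, Ccr1l1, Ccr3, Ccr8 and Cxcl15. None had more than 20 reads in a library. Ccl20, a ligand of Ccr6, had 0 reads in control 1 and in adenine 1, which allows up to 3 reads or 0.0967 and 0.120 CPM by counting error alone. Ccl26, as given above, had more reads in every adenine library than in any control, at counts too low for the test.

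Of the genes that act with chemokines, none was called in edgeR. The list of signalling partners had 54 genes, 53 of them tested: 28 had positive and 25 negative log2 fold changes, with a median of 0.01, and at an unadjusted p under 0.05 in edgeR 7 were higher and 5 lower, where the shares over all genes are 10.9% and 6.63%. Without adenine 3, in which 28 of the 53 were at their highest, the median was -0.17, with 18 positive and 35 negative, and 4 were higher and 16 lower, where the shares over all genes are 18.9% and 9.9%. Rgs1, which ends G protein signals from chemokine receptors in leukocytes, had 0.485 ± 0.0479 CPM in the controls. It measured 2.12, 3.36, 10.8 and 0.897 CPM in adenine 1 to adenine 4, all above the controls. The log2 fold change of Rgs1 was 3.15 (SE 0.64), and the adjusted p was 0.114 in edgeR and 8.41e-05 in DESeq2. Without adenine 3 it was 2.09. Gng11, a G protein gamma subunit, had -0.67 (SE 0.17), with 59.4 ± 10.3 CPM in the controls and 37.4 ± 6.77 CPM in the adenine libraries.

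The list of inducers, with cytokines and NF-kappaB regulators, had 39 genes, 38 of them tested, with a median of 0.08, and 9 were higher and 4 lower at an unadjusted p under 0.05, beside 10.9% and 6.63% of all genes. Without adenine 3 the median was -0.10, with 14 positive and 24 negative, and 6 were higher and 5 lower, beside 18.9% and 9.9%. Cebpb, a transcription factor of inflammatory genes, had 7.77, 12.0, 8.94 and 8.37 CPM in the controls and 31.9, 18.1, 27.2 and 14.99 CPM in the adenine libraries, with no overlap. For Cebpb the log2 fold change was 1.31 (SE 0.23), and the adjusted p was 0.0744 in edgeR and 0.00132 in DESeq2. Without adenine 3 it was 1.22, with an adjusted p of 0.0339 in edgeR, which passed there. Il1rn, the interleukin-1 receptor antagonist, had 4.73 (SE 0.997; adjusted p = 0.118 in edgeR), with 49.8 CPM in adenine 3 but 1.495 to 4.04 CPM in its group otherwise, and 2.38 without adenine 3 with an adjusted p of 0.0204. Of the cytokines in the list, Il6 had a log2 fold change of 1.36 (SE 0.53; adjusted p = 0.264 in edgeR), and 0.76 without adenine 3. Il1a had 0.55 (SE 0.56), Il1b 0.31 (SE 0.46) and Tnf 0.24 (SE 0.49), and without adenine 3 they had 0.56, -0.099 and 0.032. Ifng was not tested.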

How the data were processed

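The series has 4 control and 4 adenine libraries from mouse heart. The authors deposited raw read counts per gene, unscaled whole numbers for 27304 genes. Per the submitters' processing notes, which give no roles, the tools were STAR 2.7.6a and FastQC 0.11.9 and the build GRCm38.p6. The counting program and its strand setting are not stated, so reads of antisense partners cannot be told apart. A chi-square per gene of at least 20 separated every pair within a group, so none was a repeated deposit.

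Tests used edgeR 4.0.16 under R 4.3.3 (default low-count filter by group, TMM scaling, quasi-likelihood F-test, Benjamini-Hochberg adjustment). Standard errors were derived from the F statistic. Alternatives were DESeq2 1.42.0, limma-voom 3.58.1, other scalings, filters and thresholds, the replicate number as a block, and each library left out. The receptor covariate and the single count of Ccl21 were added after seeing the data. The fits were tested on simulated data. All 59 members matched the GENCODE M21 annotation by identifier, and exons of 10 overlap another gene. Members and lists were chosen with earlier results of these data known. The rule for genes given in full took the 12 lowest p, the 8 highest RPKM and the 2 lowest p per class, 14 genes reported, and the 2 lowest p per companion list. Other genes were named after their values were seen. Proteins are not used here, 2 receptor genes are not reported here, of which 1 is among the 59 and enters the counts, and Ccl21b's promoter entry lies 82647 bases from its annotated start and is not printed.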

Additional observations from a re-analysis of the deposited data

Results flagged for a closer look

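Dixon's criterion marks 1 library that lies far from the others. Chance meets it in about 1 group in 20 if values are normally distributed, and its share over all genes is not given. In 11 of the groups of 4 libraries examined for 50 tested genes, 1 library met it. Adenine 3 was that library for 9 genes, with 6.18 CPM of Ccl12, 23.4 CPM of Ccl2, 73.3 CPM of Ccl6, 12.2 CPM of Ccl7, 66.2 CPM of Ccl9, 17.5 CPM of Ccr1, 17.3 CPM of Cx3cr1, 39.0 CPM of Cxcl16 and 19.2 CPM of Cxcr4. The nearest adenine library had 1.88, 4.04, 23.8, 2.63, 12.3, 3.04, 4.90, 11.8 and 7.24 CPM of these genes, in that order. The macrophage and monocyte markers summed to 2548 CPM in the same library, 2065 CPM of it from Lyz2, and their part in these values was not tested. For Ackr3, adenine 4 stood apart with 63.6 CPM, toward the controls, with 46.1 CPM in the nearest library. For Ccl8, control 1 stood apart with 14.8 CPM, with 3.25 CPM in the nearest library.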

How the results depend on the processing

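With the replicate number as a block, 16 genes were called higher and 16 lower over the whole table, and 0 members in either direction. Same-numbered deviations correlated at 0.0916, -0.44, -0.124 and 0.254, within the -0.448 to 0.503 of the other pairs. These 4 values are too few to decide whether the numbers pair the libraries. All genes called higher, 8 in the main test, numbered 153 in DESeq2, 5 in limma-voom, 18 with upper-quartile factors, 20 with the receptor covariate, 21 at an adjusted p under 0.10, and 1 to 37 with 1 library left out. All genes called lower, 0 in the main test, numbered 175, 0, 1, 2 and 10 in that order, 6 in robust edgeR, 1 without the filter, and 0 to 30 with 1 library left out. Members called lower numbered 3 in DESeq2 and 0 in every other setting, and members called higher 0 throughout, though DESeq2 gave several members no adjusted p. Inducers called higher, 0 in the main test, numbered 2 in DESeq2, 1 with upper-quartile factors, 3 with the covariate, 1 at 0.10, and 0 to 2 with 1 library left out. Signalling partners called higher numbered 1 in DESeq2 and 0 to 1 with 1 library left out. The median log2 fold change of the members was 0.058 to 0.58 with 1 library left out, the lowest without adenine 3, and 0.45 with Ccl21 counted once. Members entirely above the controls numbered 3 to 8, and entirely below 1 to 5, with 1 library left out, and 4 lay below with DESeq2 size factors. At 1 CPM a gene has 16.4 reads in the shallowest library, so lower values carry large counting error.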
